A study of Rattus norvegicus with 24 samples.

Results

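Spinal cord of the rat compressed with a clip was compared with sham-operated cord 7 days after the injury, across all genes of the array. Each array holds RNA from the cord of 1 female Wistar rat, and the comparison rests on 8 of the 24 arrays of the series: 4 rats sampled at day 7 and 4 sham rats. The injured rats received a laminectomy of the vertebrae T6 to T8, after which a 35 g aneurysm clip compressed the cord at T7 for 1 min. The paper calls the sham rats laminectomized, and its methods describe the injured tissue as a piece of cord holding the lesion's epicenter. They do not describe the sham operation or the piece taken from sham cord. The other 16 arrays come from rats labelled days 1, 3, 14 and 56 after the clip, also 4 rats each, and serve here to place day 7 in the course of the injury. Each rat gives 1 time point. By the methods every time point had 4 sham rats of its own, whereas the labels give 4 sham arrays with no day, so the time at which these rats were sampled is not settled. The age of the rats was not stated in the labels or methods. The values are log2 expression summaries of Affymetrix rat probe sets, and 14218 genes were represented by 1 probe set each.

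In the weeks after a compression of the cord, blood-borne monocytes and resident microglia take up myelin and cell debris, fibroblasts from the perivascular space and the meninges lay down a fibrotic core, astrocytes at the border of the lesion become reactive, and neurons and oligodendrocytes have been lost. Macrophages that ingest myelin receive a large load of cholesterol, which they store as esters or hand over to lipoproteins through export pumps. In these pieces of whole tissue, fewer cells of a type and less RNA per cell cannot be told apart.

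Day 7 cord differed from sham cord over much of the array. With limma and Benjamini-Hochberg adjustment, 7611 genes (53.5% of those tested) had an adjusted p under 0.05 and are referred to as called. Most of these differences were small: 5057 of the called genes (66.4%) differed by less than 1 on the log2 scale, that is by less than a doubling. Of the 4271 genes called lower 2149 had means under 5 in both groups, as had 163 of the 3340 called higher. The genes called higher were 23.5% of those tested and the genes called lower 30%, to be set beside the list counts below. Called rises of at least 1 numbered 1472 (10.4%) and called falls of at least 1 numbered 1082 (7.61%). The largest rises exceeded the largest falls: 112 called genes were at least 4 higher and 21 at least 4 lower, and a gap of 6 or more was reached by 19 higher genes and by 0 lower genes. All 4 day 7 values lay above all 4 sham values for 2872 genes (20.2%), and below them for 4934 genes (34.7%). The share of higher genes among all called genes was 43.9%, but it depends on the scaling, at 53.2% after quantile normalization, 64.6% after median centring and 29% after centring on probe sets with 1 symbol, so the direction of the small differences is not settled. Counts of changes of at least 1 moved less, between 1255 and 1622 higher and between 987 and 1289 lower genes over the same scalings. Values near 2.65 to 2.90, the mean of the dim control probe sets on these arrays, mark the background, and the size of a difference from such a level is not exact.

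The 4 day 7 rats differed more among themselves than the sham rats did. Correlations between arrays ran from 0.973 to 0.992 within day 7 and from 0.992 to 0.995 within sham. On the first principal component of all arrays, which held 47.6% of the variance, the sham rats lay between -125 and -105, and day 7 replicates 1 to 4 lay at 55.3, 90.1, -24.5 and 23.4. Replicate 3 was therefore nearest to sham and replicate 2 farthest. The same order held for single genes: among the 1472 rises of at least 1, replicate 3 was the lowest of the 4 rats for 1282 genes and replicate 2 the highest for 1184, and among the 1082 falls replicate 3 was the highest for 989. With replicates 2 and 3 both left out, 1452 genes were called at least 1 higher and 1046 at least 1 lower. Among them were 1357 of the 1472 rises and 991 of the 1082 falls. Without replicate 3 alone the counts were 1736 and 1242, and without replicate 2 alone 1225 and 906.

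**Figure D1:**
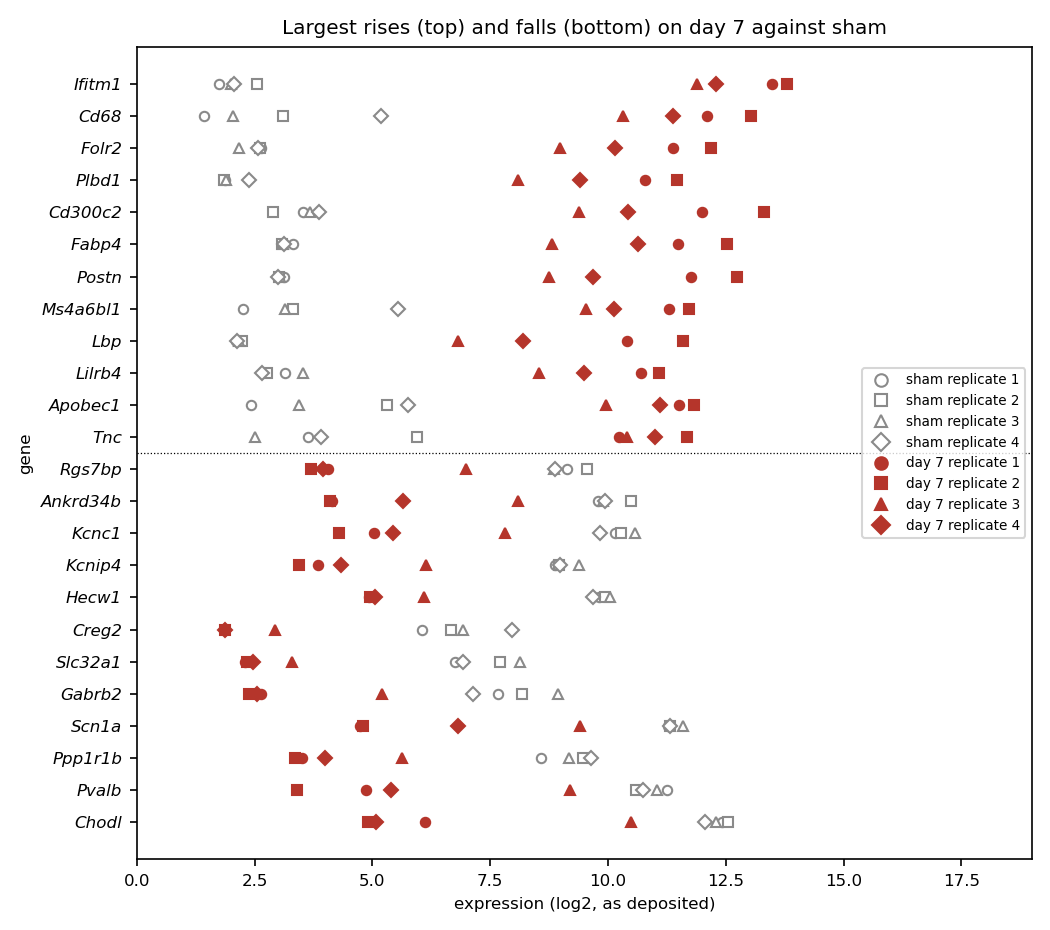
Expression (log2, as deposited) of the 12 genes with the largest rise and the 12 with the largest fall on day 7, among called genes whose groups do not overlap; each symbol is 1 rat, open for sham and filled for day 7. The mean of the higher group is at least 5, and genes named only by LOC or RGD and a number are left out. Day 7 replicate 2 is the highest rat for all 12 rises, and replicate 3 lies nearest to sham for 11 of them and for all 12 falls.

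The largest rise was that of Ifitm1, whose interferon-induced product sits in membranes and hinders virus entry. Ifitm1 read 1.75, 2.54, 1.99 and 2.05 in sham replicates 1 to 4, and 13.49, 13.80, 11.89 and 12.30 in day 7 replicates 1 to 4 (log2 difference 10.78, SE 0.39, adjusted p = 4.80e-13, limma). All sham values were at the level of the dim control probe sets, and the gene was bright in every injured cord. Behind it came phagocyte genes. Cd68, the lysosomal sialoprotein used to mark phagocytosing macrophages and microglia, read 1.43, 3.11, 2.05 and 5.18 in sham cord and 12.10, 13.03, 10.31 and 11.37 on day 7 (8.76, SE 0.64, adjusted p = 1.14e-08). Folr2, a folate receptor of tissue macrophages, was between 2.16 and 2.63 in sham cord and at 11.38, 12.19, 8.99 and 10.14 on day 7 (8.18, SE 0.62, adjusted p = 1.68e-08). No sham rat came within 5 log2 units of the lowest injured rat for either gene. Fabp4, a fatty acid carrier of macrophages and fat cells, rose by 7.71, and Postn, the fibroblast matrix protein periostin, by 7.69. The other genes among the 12 largest rises were Plbd1 (7.94), Cd300c2 (7.79), Ms4a6bl1 (7.10), Lbp (7.09), Lilrb4 (6.93), Apobec1 (6.87) and Tnc (6.83).

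The largest fall was that of a neuronal gene. Chodl, a membrane lectin of fast motor neurons, read 12.41, 12.55, 12.30 and 12.06 in sham cord and 6.11, 4.90, 10.49 and 5.07 on day 7 (-5.69, SE 1.07, adjusted p = 3.19e-04). The groups did not overlap, and replicate 3 lay nearest to sham. Pvalb, the calcium buffer parvalbumin of fast-firing interneurons and proprioceptive axons, followed the same pattern, with 4.87, 3.41, 9.19 and 5.40 on day 7 against 10.60 to 11.25 in sham cord (-5.19, SE 0.99, adjusted p = 3.60e-04). More uniform was the fall of Hecw1, a ubiquitin ligase of neurons, from 9.69 to 10.04 in sham cord to 4.92, 4.95, 6.09 and 5.06 (-4.61, SE 0.33, adjusted p = 9.66e-09). Ppp1r1b, the dopamine-regulated phosphatase inhibitor DARPP-32, fell by 5.09, the sodium channel Scn1a by 4.93, the GABA receptor subunit Gabrb2 by 4.79 and the vesicular inhibitory amino acid transporter Slc32a1 by 4.78.

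Genes of phagocytes rose together. Of 17 macrophage markers on the array, 14 rose, all by at least 1 (median difference over the 17 genes 3.24, against -0.05 over all genes). Beside Cd68 and Folr2, Cd14, the co-receptor for bacterial lipopolysaccharide, read 2.40 to 3.96 in sham cord and between 8.67 and 11.41 on day 7 (6.74, SE 0.46, adjusted p = 5.05e-09), and the mannose receptor Mrc1 rose by 5.88. The general marker Aif1, which encodes Iba1, and the CSF1 receptor Csf1r rose less, by 2.63 and 1.69. The 3 markers not called were Ms4a7 (0.44), the haemoglobin scavenger receptor Cd163 (0.43) and the Kupffer cell lectin Clec4f (-0.04).

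Markers of resident microglia were divided. Of 10 markers 7 rose, among them P2ry12, the ADP receptor of surveying microglia (1.31, SE 0.28, adjusted p = 8.89e-04), the fractalkine receptor Cx3cr1 (1.78) and Trem2, the lipid receptor that drives debris uptake (3.87, SE 0.36, adjusted p = 2.04e-07). Tmem119, which is specific to microglia in healthy cord, read 7.54 to 8.96 in sham cord and 8.82, 8.30, 9.44 and 9.02 on day 7 and was not called (0.54, adjusted p = 0.258, 95% confidence interval -0.30 to 1.37). Its groups overlapped, while Trem2 ran from 10.02 to 12.43 on day 7 against 6.98 to 8.13 in sham cord. Trem2 is also a member of the list of lipid handling of phagocytes. The markers Sall1 (0.06, 95% confidence interval -0.43 to 0.55) and Crybb1 (-0.05) were not called either.

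All 22 genes on the array from the list of phagocyte receptors, NADPH oxidase parts and other leukocyte genes rose, 21 by at least 1. Over all genes 23.5% were called higher. Like the other lists, this one was chosen with earlier results of these data known. Cybb, the catalytic gp91 subunit of the oxidase that makes superoxide, read 3.51, 4.48, 4.53 and 5.53 in sham cord and 11.02, 11.53, 9.05 and 9.64 on day 7 (5.80, SE 0.62, adjusted p = 7.76e-07). Its membrane partner Cyba rose by 3.84 and the cytosolic organizers Ncf1 and Ncf4 by 3.90 and 2.38. Lilrb4, an inhibitory receptor of myeloid cells, Clec7a, the beta-glucan receptor dectin-1, and the Fc receptor Fcgr3a rose by 6.93, 5.65 and 4.45. The smallest rise on the list was that of Sirpa, the receptor for the "do not eat me" signal CD47, at 0.99.

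Lipid handling and lysosomal genes belonged to the same direction. Of 26 genes of lipid uptake, storage and export, 24 rose and 0 fell. Apoc1, an apolipoprotein of lipid-laden macrophages, read 2.29 to 5.64 in sham cord and 11.11, 12.19, 9.37 and 9.24 on day 7 (5.88, SE 0.69, adjusted p = 2.47e-06). Lpl, which releases fatty acids from lipoproteins, rose by 5.21, the scavenger receptor Cd36 by 3.17, the cholesterol esterifying enzyme Soat1 by 3.22 and the lipid droplet coat protein Plin2 by 2.33. Pparg, the fatty acid sensor, was not called (-0.09). On the lysosome list 32 of 41 genes rose, 24 of them by at least 1, and Atp6v1a, the catalytic subunit of the proton pump, fell by 0.71. Proteases and hydrolases led: the osteoclast and macrophage enzymes Acp5 (4.83) and Ctsk (4.19), the dipeptidase Ctsc (4.07) and the glucuronidase Gusb (3.58). Ctsb, the abundant cysteine protease cathepsin B, rose by 1.94 from an already high sham level of 12.29 to 13.39. The transcription factors that drive lysosomal genes moved little, with Tfe3 0.62 higher and Tfeb (0.26) and Mitf (0.22) not called.

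The CLEAR element CACGTGAC, to which TFEB and TFE3 bind, was looked for on both strands of the RefSeq promoter windows (assembly GRCr8, 250 bases before to 50 after the start of a gene), which were at hand for 10946 of the 14218 genes. It was found for 7 of the 35 lysosomal genes with a window (20%), against 3.56% of all windows. Of the 7 genes with it 5 rose (median difference 0.54), and of the 28 without it 23 rose and 1 fell (1.64), a difference that was not tested. The stretch from 160 bases to 1 base before the start is shown for the pair with the largest rises among genes with a match there, Glb1 (2.16), the lysosomal beta-galactosidase, and Ctsd (1.77), the aspartic protease cathepsin D, with the matches in capitals.
Glb1 (chr8:122963558-122963717, + strand): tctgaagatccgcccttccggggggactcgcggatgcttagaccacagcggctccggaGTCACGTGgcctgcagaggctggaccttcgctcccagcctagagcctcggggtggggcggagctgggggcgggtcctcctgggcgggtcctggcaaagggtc
Ctsd (chr1:206968822-206968981, - strand): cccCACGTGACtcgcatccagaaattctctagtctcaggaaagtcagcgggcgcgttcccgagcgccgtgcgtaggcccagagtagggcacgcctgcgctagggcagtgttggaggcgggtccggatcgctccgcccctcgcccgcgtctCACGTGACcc

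The recognition molecule C1q is built from 3 chains, and C1qa, C1qb and C1qc rose by 2.94, 3.68 and 4.79. C1qb read 9.66, 10.37, 9.70 and 10.40 in sham cord and 13.89, 14.13, 13.01 and 13.82 on day 7 (SE 0.21, adjusted p = 5.05e-10), with a narrow spread in both groups. The receptors for the fragments C5a and C3a, C5ar1 and C3ar1, rose by 5.09 and 4.08. In all 14 of 19 complement genes rose and 3 fell, against 23.5% higher and 30% lower over all genes. Of the 3, the inhibitors Clu (-0.82) and Cd59b (-0.86) fell by more than 0.1. The central component C3 was not called (-0.38).

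Genes of antigen presentation rose in part. Of 17 genes of the MHC class I pathway 12 rose, led by the immunoproteasome subunits Psmb8 (4.46, SE 0.48, adjusted p = 9.45e-07), Psmb9 (3.35) and Psmb10 (1.89). On the class II list 6 of 13 rose, and 46.2% were called in either direction, against 53.5% of all genes. Among the 6 were the peptide-loading chains RT1-DMa and RT1-DMb (2.95 and 2.94), the lysosomal thiol reductase Ifi30 (3.69) and the costimulator Cd86 (2.61). The genes of the class II molecules and of their invariant chain Cd74 were not called, with RT1-Da at 7.07, 9.46, 9.39 and 9.36 in sham cord and 9.48, 11.01, 9.80 and 9.99 on day 7 (1.25, adjusted p = 0.0925), Cd74 at 0.57 and RT1-Db1 at 1.04 (adjusted p = 0.324). Here 1 sham rat, replicate 1, lay over 2 units below the other 3. RT1 genes are close copies of one another, so the value of a single RT1 gene is uncertain.

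Interferon-stimulated genes rose in 25 of 31 cases, 24 of them by at least 1, and 0 fell (median difference 2.39). Mx1, a GTPase that blocks virus replication, read 4.78, 5.04, 4.76 and 7.57 in sham cord and 11.10, 10.86, 9.31 and 11.48 on day 7 (5.15, SE 0.69, adjusted p = 9.19e-06). Irf7, the transcription factor that amplifies type I interferon signals, read 5.64, 5.80, 5.76 and 6.88 in sham cord and 9.56, 9.66, 8.58 and 10.66 on day 7 (3.60, SE 0.58, adjusted p = 7.16e-05). In both genes sham replicate 4 was the highest sham rat and day 7 replicate 4, not replicate 2, was the highest injured rat. The antiviral enzyme Rsad2 (4.37), the chemokine Cxcl10 (4.24), the ubiquitin-like Isg15 (3.60) and the guanylate binding protein Gbp2 (2.93) rose as well, while Cxcl9 (-0.06) and the RNA sensor Ifih1 (0.20) were not called. Counted over the 4 rats, the list's median difference was 2.71, 2.67, 1.19 and 2.94.

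The core of the interferon-stimulated response element, the site of IRF and STAT complexes, was found on either strand in the promoter windows of 15 of 23 genes of this list (65.2%). The same letters were in 2.99% of all windows, in 5.76% of those of genes that rose by at least 1 and in 2.19% of those of genes that fell by at least 1. Of the 15 genes with the core 14 rose (median 2.67), and of the 8 without it 5 rose (median 1.78). The windows of the 4 with the largest rises among genes with a match in the last 160 bases are shown, with the match in capitals. Ifitm2 encodes a relative of the protein of Ifitm1.
Rsad2 (chr6:48788121-48788280, - strand): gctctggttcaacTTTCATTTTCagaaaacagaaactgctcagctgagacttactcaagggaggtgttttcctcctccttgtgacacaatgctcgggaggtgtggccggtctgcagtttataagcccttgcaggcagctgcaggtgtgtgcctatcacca
Ifitm2 (chr1:205482349-205482508, - strand): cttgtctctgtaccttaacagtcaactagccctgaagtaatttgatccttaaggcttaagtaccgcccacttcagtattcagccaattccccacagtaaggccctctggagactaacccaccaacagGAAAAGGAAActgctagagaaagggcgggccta
Irf7 (chr1:205800024-205800183, - strand): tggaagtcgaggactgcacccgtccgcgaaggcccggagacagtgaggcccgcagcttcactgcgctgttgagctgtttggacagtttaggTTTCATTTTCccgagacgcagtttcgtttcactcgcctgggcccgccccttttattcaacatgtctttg
Gbp2 (chr2:234005567-234005726, + strand): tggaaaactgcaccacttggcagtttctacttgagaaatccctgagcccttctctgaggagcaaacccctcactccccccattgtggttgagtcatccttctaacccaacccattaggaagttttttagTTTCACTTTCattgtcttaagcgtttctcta

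The inflammatory cytokines Il1b, Tnf and Il6 differed by -0.06, -0.01 and -0.10 and were not called. All 8 values of Il1b lay between 2.02 and 2.12, at background, where a change below detection cannot be seen. The paper reports that IL-1B and TNF-alpha rose after the injury, and the cause of this difference was not tested. Of 29 genes of interleukin-1, TNF and IL-6 signalling 14 rose and 3 were called lower, against 23.5% and 30% over all genes. Among those that rose were the inflammasome protease Casp1 (3.62) and its adaptor Pycard (2.86). So did the transcription factor Cebpd (2.54), the cytokine Il18 (2.26) and the receptors Tnfrsf1a (2.10) and Il1r1 (1.79). Among chemokines the monocyte attractant Ccl2 read 2.99, 3.57, 2.99 and 3.28 in sham cord and 8.97, 10.75, 8.69 and 10.52 on day 7 (6.52, SE 0.50, adjusted p = 1.79e-08), and the macrophage chemokine Ccl6 rose by 6.41. The neutrophil attractants Cxcl1 (0.42), Cxcl2 (-0.05) and Cxcl3 (-0.15) were not called. Toll-like receptors Tlr2, Tlr4, Tlr7 and Tlr8 rose by 3.42, 2.82, 3.82 and 2.67.

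Markers of lymphocytes and neutrophils were mostly near background. Of 24 T cell markers 4 rose, Cd8a, Cd8b, Cd4 and Icos, and 7 were called lower, against 23.5% higher and 30% lower over all genes. With 1 rat left out these counts were 2 to 5 and 2 to 9, and 13 markers were below the level of the control probe sets on all 8 arrays. Cd8a read 2.72 to 2.81 in sham cord and between 6.6 and 10.17 on day 7 (5.34, SE 0.70, adjusted p = 8.41e-06), and Cd4 4.22, 5.78, 4.38 and 5.34 against 6.90, 7.67, 6.35 and 7.47 (2.17, SE 0.40, adjusted p = 2.50e-04). The chains of the T cell receptor complex did not follow: Cd3e read 4.98 to 5.38 in sham cord and 4.92 to 5.17 on day 7 (-0.13, adjusted p = 0.551), Cd3g differed by 0.06, Cd247 by -0.09, Cd3d was called lower by 0.07 at background, and the T cell kinase Lck by 0.41 (adjusted p = 0.202). In the rat CD4 is also carried by monocytes and macrophages, and CD8 by natural killer cells and by some activated macrophages. The fall of Thy1 by 2.51, a surface protein of T cells and of neurons, stood among the neuronal falls. The B cell markers Ms4a1 (-0.04) and Jchain (-0.04) were at background and not called. Of 14 neutrophil markers the protease inhibitor Slpi (4.06), the G-CSF receptor Csf3r (3.18) and Mmp8 (2.15) rose, and 4 fell, of which Chi3l1, also made by astrocytes and macrophages, fell by 1.11 (1 to 4 falls with 1 rat left out). The granule and cytosol proteins Camp (-0.05) and S100a8 (-0.17) were not called. S100a9 was at 4.23, 6.74, 4.19 and 4.25 on day 7 against 3.88 to 4.37 in sham cord, so 1 rat, replicate 2, was above the sham range.

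Cell division genes rose in 36 of 50 cases and fell in 1 (median difference 1.42). Mki67, which encodes the Ki-67 antigen of cycling cells, read 5.23, 4.92, 5.08 and 4.68 in sham cord and 9.69, 10.95, 8.26 and 9.67 on day 7 (4.66, SE 0.44, adjusted p = 2.10e-07). Cdk1, the kinase that starts mitosis, was at most 4.0 in sham cord and at 8.87, 9.97, 7.08 and 8.92 on day 7 (5.05, SE 0.40, adjusted p = 3.30e-08), and its small partner Cks2 rose by 5.41. Replicate 2 was the highest and replicate 3 the lowest in all 3 genes, with no overlap with sham. The DNA helicase subunits Mcm6 (4.2), Mcm4 (3.22) and Mcm2 (2.19) rose, Mcm3 (0.43) and the cyclin E gene Ccne1 (-0.12) were not called, and Stmn1, a tubulin-binding protein also found in neurons, fell by 0.67.

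CCAAT, the box of the factor NF-Y, was present on either strand in 74.4% of the promoter windows of this list (32 of 43), against 37.3% of all windows, and the cell cycle homology region TTTGAA in 44.2% (19 of 43), against 12.3%. In windows of genes that rose by at least 1 the shares were 38.7% and 14.5%. Of the 16 list members with both motifs 13 rose (median 2.69). Of the 32 with CCAAT 24 rose (median 1.44), and of the 11 without it 7 rose (1.34). Of the 19 with TTTGAA 14 rose (2.19), and of the 24 without it 17 rose (1.16). These differences were not tested. The promoter stretches of Cks2 and Cdk1, the largest rises among members with both motifs in the last 160 bases, show several of them, with every match in capitals.
Cks2 (chr17:13727520-13727679, - strand): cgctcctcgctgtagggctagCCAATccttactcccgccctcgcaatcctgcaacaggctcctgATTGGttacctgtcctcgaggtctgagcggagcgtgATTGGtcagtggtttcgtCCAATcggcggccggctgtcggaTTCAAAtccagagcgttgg
Cdk1 (chr20:19265133-19265292, + strand): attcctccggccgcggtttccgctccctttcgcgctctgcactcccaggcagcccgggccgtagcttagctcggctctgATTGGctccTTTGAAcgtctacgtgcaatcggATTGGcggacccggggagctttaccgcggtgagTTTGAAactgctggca

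Matrix genes of the fibrotic scar rose in 32 of 40 cases and fell in 0 (median difference 2.25). Postn was at 3.00 to 3.12 in sham cord and at 11.76, 12.74, 8.75 and 9.68 on day 7 (7.69, SE 0.71, adjusted p = 1.69e-07). Tnc, the glycoprotein tenascin C of provisional matrix, read 3.64, 5.95, 2.51 and 3.91 in sham cord and between 10.23 and 11.67 on day 7 (6.83, SE 0.54, adjusted p = 2.83e-08). Postn spread more widely among the injured rats than Tnc, and neither overlapped with sham. The fibrillar collagens Col1a1, Col1a2 and Col3a1 rose by 3.98, 2.90 and 3.48, the collagen VI chains Col6a1, Col6a2 and Col6a3 by 3.80, 3.20 and 4.67, fibronectin (Fn1) by 2.71 and the cross-linking enzymes Lox and Loxl2 by 3.46 and 4.5. Col1a1 showed the spread of the rats, with 13.52 and 14.20 in replicates 1 and 2 and 11.81 and 11.69 in replicates 3 and 4 against 7.74 to 9.33 in sham cord. Counted per rat, the list's median difference was 2.79, 3.54, 1.47 and 1.37, and 25 genes were called higher without replicates 2 and 3. Fap, the fibroblast activation protein, was 0.52 higher, and Ccn2 (0.33) was not called.

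Markers of pericytes and fibroblasts were uneven. Of 22, 9 rose and 4 fell, against 23.5% higher and 30% lower over all genes. After quantile normalization 10 rose and 2 fell. Without day 7 replicates 2 and 3 the counts were 8 and 1. Anpep, an aminopeptidase of pericytes and myeloid cells, rose by 4.69, the proteoglycan Lum by 3.51 and the contractile protein Tagln by 2.62. The receptor Pdgfrb read 5.41 and 6.59 in replicates 1 and 2 and 4.15 and 4.07 in replicates 3 and 4 against 3.91 to 4.06 in sham cord, and was not called (1.08, adjusted p = 0.0726). Rgs5, a pericyte signalling protein, fell by 1.47 and Abcc9, a channel subunit of pericytes, by 0.48. Tgfb1, the cytokine that drives fibroblast matrix production, rose by 2.91 (SE 0.39, adjusted p = 1.12e-05) and Tgfb3 by 2.42, while Tgfb2 (-0.29) was not called.

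Of 27 metalloproteinases and inhibitors 16 rose and 3 fell, against 23.5% higher and 30% lower over all genes. Mmp12, the macrophage elastase, read 2.99 to 3.29 in sham cord and 10.78, 11.19, 7.66 and 8.87 on day 7 (6.47, SE 0.73, adjusted p = 1.59e-06), the gelatinase Mmp2 rose by 5.27 and the inhibitor Timp1 by 3.62. Mmp3 (-0.06) was not called, Mmp9 (-0.06) and Mmp13 (-0.11) were called lower at background levels, and Timp4, an inhibitor of the nervous system, fell by 2.55. For MMP9 the paper reports an increase after the injury, and why the values differ was not tested. The AP-1 site TGANTCA lay in 5 of the 20 windows of this list, against 5.49% of all windows, and 2 of these 5 genes, Mmp7 and Mmp12, rose. Plau, the plasminogen activator urokinase, rose by 5.65. Among chondroitin sulfate proteoglycans, which hinder axon growth, Ncan (3.53) and Vcan (1.80) rose, Bcan (0.46) was not called, Cspg5 fell by 1.45, and Hapln4, a link protein of perineuronal nets, fell by 4.34.

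On the values as deposited, the shares of endothelial markers called were below those of all genes (23.5% higher and 30% lower). Their falls numbered 6 after quantile normalization, 5 after median centring and 3 to 6 with 1 rat left out. The share of all genes called lower also depends on the scaling, so the comparison of falls is not settled. Of 29 endothelial markers 4 rose, including the angiogenic co-receptors Tie1 (2.11) and Eng (1.87), and 6 fell, including Abcg2 (-1.94), an efflux pump of the blood-brain barrier, Flt1 (-1.20) and the lipid transporter Mfsd2a (-0.63). The pan-endothelial Pecam1 (0.41, adjusted p = 0.0597) and the tight junction gene Cldn5 (-0.18) were not called. Vegfa, the main vessel growth factor, read 7.95 to 8.45 in sham cord and 6.70, 6.62, 6.71 and 6.01 on day 7 (-1.66, SE 0.30, adjusted p = 1.91e-04), with no overlap. Basement membrane collagens Col4a1 and Col4a2 rose by 3.41 and 2.51, and 7 of 15 genes of that list rose.

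Astrocyte genes were split by their role. Of 22 genes of reactive astrocytes 14 rose and 1 fell, with Nes, the intermediate filament nestin, at 6.36 to 6.58 in sham cord and 9.69, 10.39, 9.45 and 10.34 on day 7 (3.48, SE 0.26, adjusted p = 1.68e-08), and vimentin (Vim) 2.08 higher in all 4 rats. Gfap, the filament protein that defines astrocytes, read 14.63, 14.74, 14.76 and 14.85 in sham cord and 14.55, 14.24, 14.80 and 14.90 on day 7 (-0.12, adjusted p = 0.468, 95% confidence interval -0.41 to 0.17). Only 41 probe sets (0.132%) had a higher mean than Gfap on these 8 arrays, whose highest value was 16.1, and the part that a bright probe set's limited range plays was not tested. Vim reached 14.59 to 14.85 on day 7, the same range. Of 22 genes of resting astrocytes 0 rose and 13 fell (8 without day 7 replicates 2 and 3). The D-serine transporter Slc7a10 read 6.25 to 7.03 in sham cord and 2.54, 2.59, 3.14 and 2.68 on day 7 (-3.86, SE 0.19, adjusted p = 4.85e-11), the gap junction gene Gjb6 fell by 3.20, the potassium channel Kcnj10 by 2.35 and the glutamate transporter Slc1a2 by 2.24. The second glutamate transporter, Slc1a3, differed by 0.42 (adjusted p = 0.100), and Aqp4, the water channel of the end feet, fell by 0.95. The day 7 values of Slc7a10 are at background, so the size of its fall in single rats is not exact.

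Of 30 oligodendrocyte genes 11 fell, 6 of them by at least 1, and 4 rose (median difference -0.48), against 30% lower and 23.5% higher over all genes. The count of falls ran from 7 to 14 with 1 rat left out. Mbp, the myelin basic protein, was at 15.25 to 15.42 in sham cord and at 15.08, 14.93, 15.24 and 15.26 on day 7 (-0.23, SE 0.06, adjusted p = 0.00492), and Mag (-0.11) and Cnp (-0.04) were not called. Mbp, like Gfap, is near the top of the scale. Larger falls were those of Omg (-1.5), Ermn (-1.38) and Gpr37 (-1.36), and in Ermn the rats read 12.32, 11.39, 13.10 and 12.67 against 13.66 to 13.80. Of 16 markers of oligodendrocyte precursors 6 rose, with the proteoglycan Cspg4 (1.06) and the kinase Fyn (0.86) leading, and 3 fell. With 1 rat left out 3 to 7 were called higher and 1 to 3 lower. Pdgfra, the growth factor receptor of precursors and of fibroblasts, was not called (0.67, adjusted p = 0.114).

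Cholesterol synthesis and cholesterol export moved in opposite directions. Of 25 genes, 19 fell, 17 of them by at least 1, mostly of synthesis steps and their regulators. Fdft1, which commits farnesyl units to sterols, read 10.83, 10.91, 11.04 and 10.38 in sham cord and 7.60, 6.61, 9.35 and 9.01 on day 7 (-2.65, SE 0.54, adjusted p = 6.95e-04). Idi1, the isomerase that feeds the pathway, was at 11.70 to 12.12 in sham cord and at 10.04, 9.51, 11.03 and 10.74 on day 7 (-1.57, SE 0.26, adjusted p = 1.03e-04). No injured rat reached the sham range for either. Sc5d (-1.64), Insig1 (-1.55), Mvd (-1.52), Msmo1 (-1.47), Sqle (-1.19) and the controlling factor Srebf2 (-1.12) fell as well. The 4 genes that rose were the export pumps Abca1 (2.63, SE 0.43, adjusted p = 6.93e-05) and Abcg1 (1.32), the enzyme Ch25h (3.17), which makes 25-hydroxycholesterol, and the isomerase Ebp (0.39). Abca1 read 10.26 to 11.04 in sham cord and 13.38, 13.49, 13.28 and 12.63 on day 7. The list medians of macrophage and oligodendrocyte markers in the same rats were 3.24 and -0.48, and their part in the fall was not tested.

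**Figure D2:**
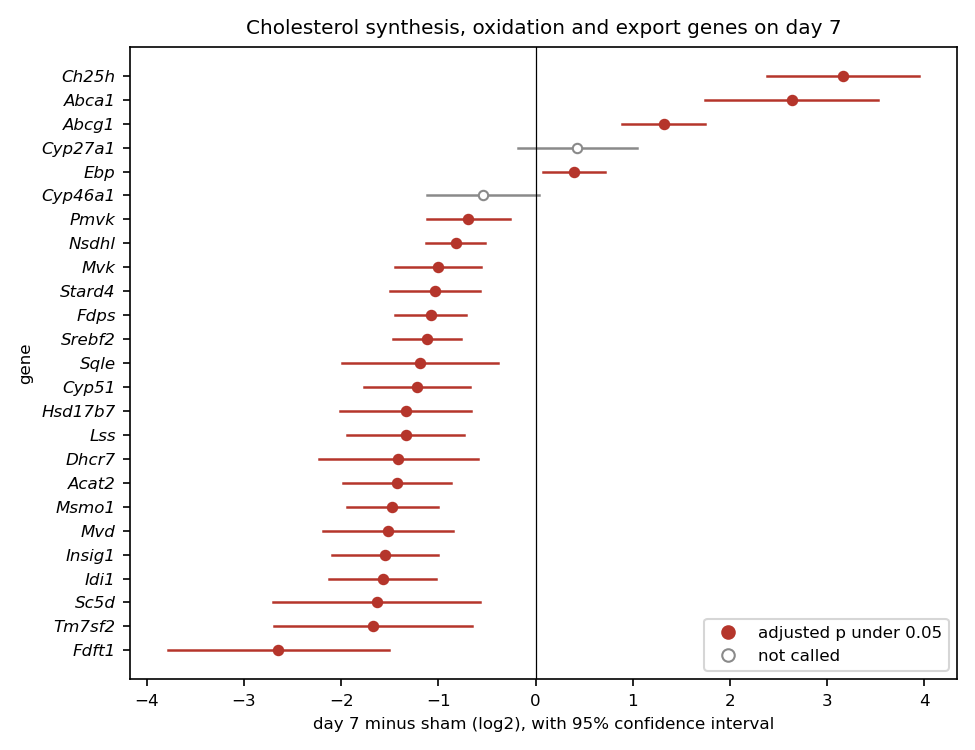
Log2 difference between day 7 and sham for the 25 genes of cholesterol synthesis, oxidation and export, with limma's 95% confidence interval; filled points are called genes. Most synthesis genes lie to the left of 0, down to -2.65 for Fdft1, and Abca1, Abcg1, Ch25h and the synthesis enzyme Ebp (0.39) are called to the right.

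Neuronal genes fell. Of 26 genes of neurofilaments and the axonal cytoskeleton 24 fell and 0 rose (background 30% of genes called lower, 7.61% by at least 1), 20 of them by at least 1. Nefl, the light neurofilament chain, read 14.38, 14.41, 14.78 and 14.27 in sham cord and 9.81, 9.65, 13.31 and 10.79 on day 7 (-3.57, SE 0.81, adjusted p = 0.00162). The heavy chain Nefh fell by 4.13, and the axonal kinesin Kif5a by 3.23. Gap43, the growth cone protein, was 1 of the 2 genes not called (0.46). Replicate 3 kept Nefl at 13.31, between the other injured rats and sham.

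Genes of synaptic release fell in 28 of 33 cases (median -1.87), and Syngr1, a vesicle protein also found outside neurons, rose by 2.79. Rims1, a scaffold of the release site, had the most uniform fall, from 6.22, 6.44, 6.54 and 6.25 to 2.07, 2.10, 2.17 and 2.10 (-4.25, SE 0.12, adjusted p = 1.11e-14), although the day 7 values are at background. Snap25 fell by 2.28 and the glutamate transporter of vesicles Slc17a6 by 2.76. Inhibitory genes fell in 19 of 23 cases: the GABA-making enzymes Gad1 and Gad2 by 2.89 and 2.24, the glycine receptor Glra1 by 2.87 and the chloride pump Slc12a5 by 2.84. Glutamate receptor genes fell in 21 of 28 cases, led by the NMDA receptor subunits Grin2a (-3.51) and Grin1 (-3.0). Ion channel genes fell in 35 of 44 cases, and 21 by at least 1. With 1 rat left out 23 to 28 synaptic and 16 to 20 inhibitory genes were called lower. For glutamate receptors and ion channels these counts were 15 to 20 and 27 to 38. Over the scalings 17 to 25 glutamate receptor and 26 to 41 ion channel genes were called lower. Of the ion channel genes 8 were below the control level on all 8 arrays. The potassium channel Kcnc1 of fast-spiking neurons (-4.57) and the channel partner Kcnip4 (-4.61) were among the 12 largest falls of the array.

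Motor neuron markers fell in 11 of 16 cases, and in 8 to 10 with 1 rat left out. Chat, which makes acetylcholine, read 4.91, 5.56, 5.80 and 4.94 in sham cord and 2.48, 2.50, 2.51 and 2.41 on day 7 (-2.83, SE 0.22, adjusted p = 2.05e-08), so it reached background in all 4 rats, and the choline transporter Slc5a7 fell by 4.06. Rreb1 (2.13) and Calcb (1.71), a CGRP gene of motor and sensory neurons, rose, whereas Calca, the other CGRP gene, fell by 2.04. Among neuropeptides Trh, the thyrotropin-releasing hormone, read 5.75, 5.29, 4.90 and 3.83 in sham cord and between 8.62 and 10.42 on day 7 (4.74, SE 0.36, adjusted p = 2.05e-08), opposite to Gal (-1.57), Cck (-1.60) and Sst (-1.51). Injury response genes were mixed: Atf3, a stress factor of injured neurons and of other cells, rose by 5.31 (SE 0.42, adjusted p = 2.61e-08), Gadd45a by 2.34 and Jun by 1.31, while Sox11 (0.34) and Sprr1a (0.10) were not called.

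Energy metabolism showed small shifts with a few large ones. Of 50 respiratory chain genes 21 fell and 1 rose, against 30% lower and 23.5% higher over all genes. Of these 50 genes 0 changed by as much as 1, and the count of falls ran from 13 to 34 over the scalings. In glycolysis and lactate transport 6 of 29 genes rose and 10 fell (median difference -0.06), against 23.5% and 30% over all genes. Isoforms moved apart in 2 enzymes, hexokinase and lactate dehydrogenase. Hk2 rose by 3.09 and Ldha by 2.08, whereas Hk1 (-1.06) and Ldhb (-1.22) fell. Eno2 (-1.36) and Pfkm (-1.95) fell too. Gapdh differed by -0.06 and was not called. Hmox1, which degrades heme, read 2.59, 6.10, 6.16 and 5.19 in sham cord and 11.79, 12.59, 10.36 and 11.39 on day 7 (6.52, SE 0.58, adjusted p = 1.13e-07).

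Over all genes 23.5% were called higher and 30% lower, the shares to set beside the lists that follow. Of 32 genes of coagulation and plasminogen activation 15 rose and 3 fell (median difference 0.56), and of 36 genes of protein folding and the stress response 17 rose and 8 fell (0.30). Iron and heme genes rose in 6 of 19 cases and fell in 1, angiogenic factors rose in 6 of 21 and fell in 6, and Schwann cell genes rose in 3 of 13 and fell in 3. Of 15 ependymal markers 5 were called lower and 1 higher, all by less than 1, and the count of lower markers was 1 after quantile normalization and 1 to 7 with 1 rat left out. Of 11 housekeeping genes 4 rose and 1 fell (median difference 0.23).

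Tissue outside the cord was checked with marker lists. Of 18 cartilage and bone markers 3 rose, Acp5, Ctsk and Spp1, all of which macrophages also express, 10 were called lower (3 to 12 with 1 rat left out), and the defining Col2a1 (-0.04) and Bglap (-0.06) were at background. Of 11 fat markers Fabp4, Lpl and Cfd rose, and the defining Adipoq and Plin1, both at background, were called lower by 0.06. Of 22 muscle markers Tnni2 rose (1.03), and muscle genes separated the rats: Myl1 read 7.39, 2.52, 7.19 and 2.48 and Myl11 8.31, 1.76, 7.29 and 1.74 in day 7 replicates 1 to 4, against 2.52 to 2.62 and 1.77 to 1.83 in sham cord. Acta1 followed, at 8.38, 3.49, 8.73 and 3.48. Replicates 1 and 3 thus carried muscle transcripts, on opposite sides of the rats' order, while Myl1 and Myl11 were not called (adjusted p = 0.0844 and 0.0676). Of 8 red cell markers 4 were called lower (median difference -0.10, 1 to 5 with 1 rat left out, 2 after quantile normalization), and 5 were below the control level on all 8 arrays. Hbb, the beta globin, fell by 1.23 and Alas2, of red cell precursors, by 2.70. Of 23 meningeal markers 2 were called higher and 5 lower, and 2 to 4 lower with 1 rat left out.

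**Figure D3:**
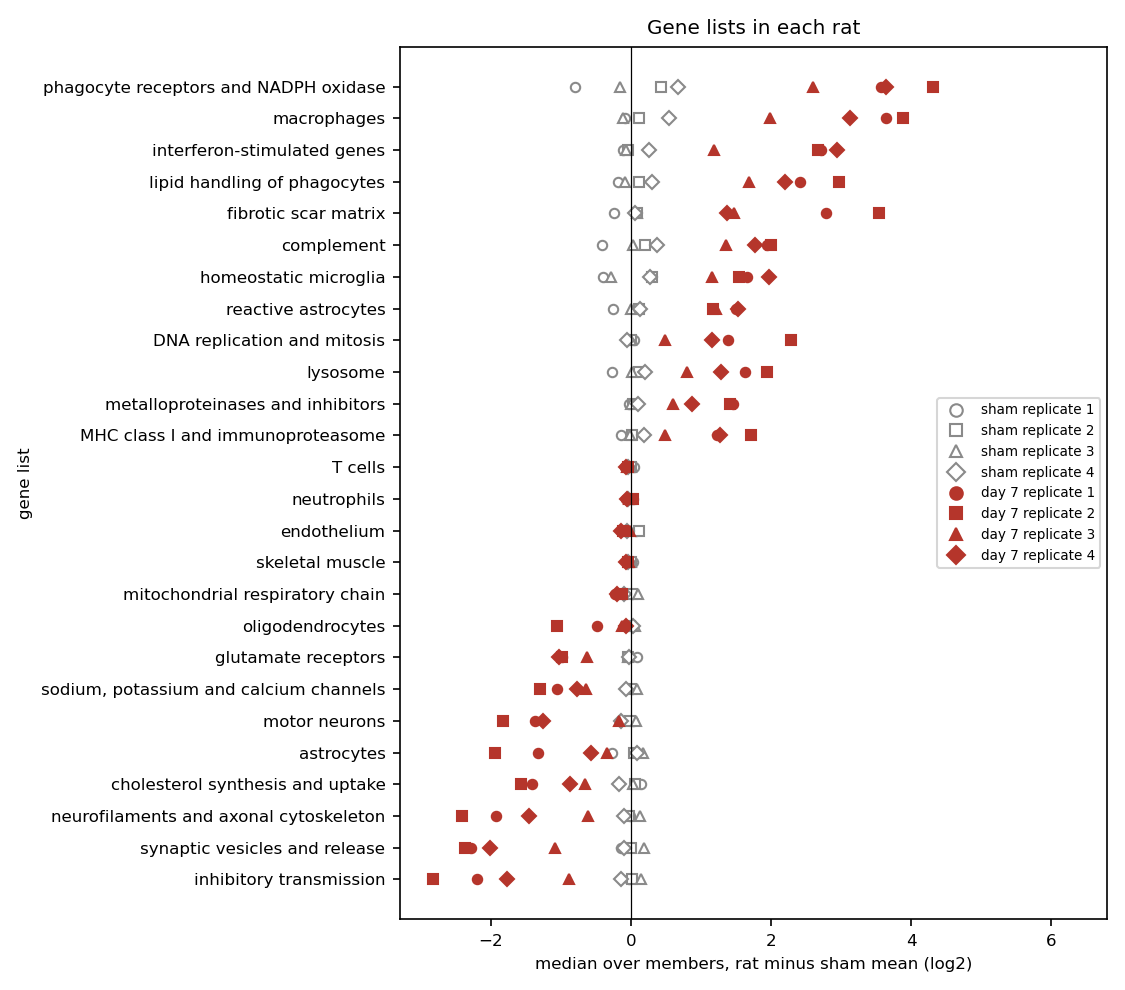
Median over the members of 26 gene lists of each rat's log2 value minus the sham mean; open symbols are sham rats, filled symbols day 7 rats. Macrophage genes lie at 3.64, 3.88, 1.99 and 3.13 and genes of inhibitory transmission at -2.20, -2.83, -0.89 and -1.78 in day 7 replicates 1 to 4, so replicate 3 is nearest to sham in both.

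The rats' order was alike in several lists of opposite direction, though not in all lists. Replicate 3 had the smallest median rise in macrophage, interferon, lysosome and cell division genes, and the smallest median fall in axonal (-0.62), synaptic (-1.08) and inhibitory genes (-0.89). Replicate 4 instead lay nearest to sham for the scar matrix, basement membrane (0.33), pericytes and fibroblasts (0.05) and oligodendrocytes (-0.08), among others. For reactive astrocytes replicate 2 was lowest, at 1.16, and replicate 4 highest, at 1.53. Replicate 2 was also lowest for small leucine-rich proteoglycans (0.31). Genes with a day 7 range of at least 2 and a sham range under 1 numbered 569, against 42 with the reverse. Besides Chodl and Pvalb, the widest ranges belonged to Dao, the D-amino acid oxidase (4.29, 2.42, 8.00 and 5.63, against 8.54 to 9.28 in sham cord), the coagulation factor F5 (5.79, 7.77, 2.52 and 2.54) and the protease Mmp7 (6.70, 7.99, 3.09 and 6.01). Cxcl10 ran from 3.65 in replicate 3 to 8.58 in replicate 4. 

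Comparison with the other days uses the labels as they stand, and 2 groups stand apart from the rest in that order. Immediate early and neutrophil genes were highest on the arrays labelled day 3 and macrophage and cell division genes on those labelled day 1. Other inflammatory genes differed from this: interleukin-1, TNF and IL-6 signalling had list medians of 2.01 on day 1 and 1.25 on day 3. The list of AP-1, axon injury and growth genes had medians of 0.39 and 1.09. S100a9 had means of 11.02 on the arrays labelled day 1, 12.65 on those labelled day 3 and 4.85 on day 7, and Fosl1, a factor of the early injury response, 6.24, 8.75 and 1.67. Cd68 had means of 11.93, 7.48 and 11.70, and Mki67 of 11.71, 9.09 and 9.64. Whether these labels are in their right order was not tested, and the differences of day 7 from sham and from day 14 do not use their means.

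**Figure D4:**
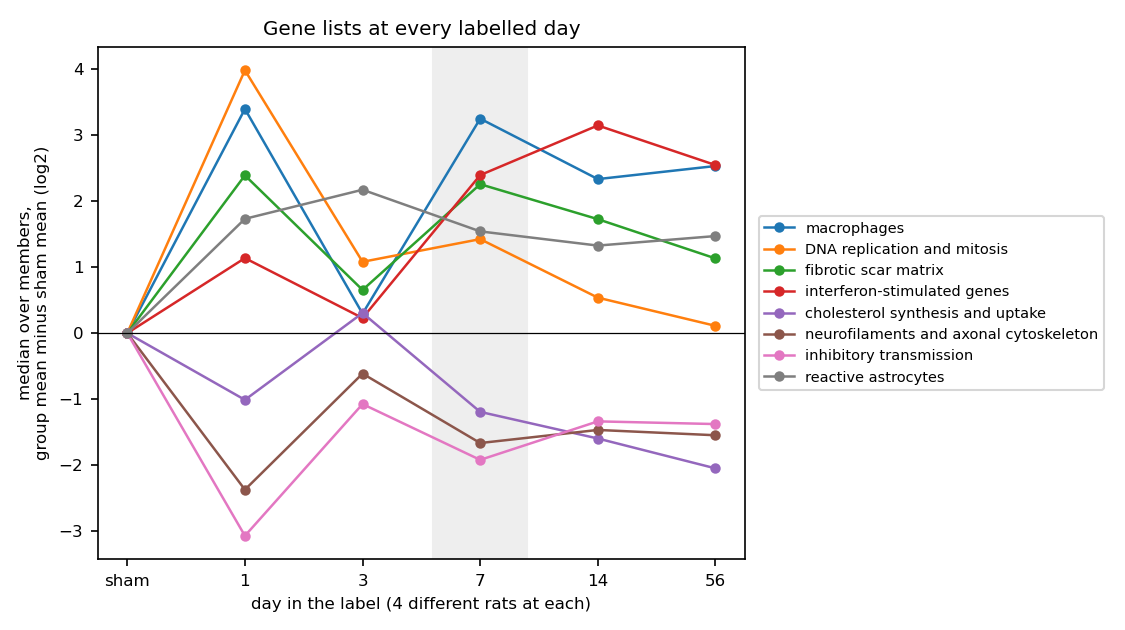
Median over the members of 8 gene lists of the group mean minus the sham mean (log2), by the day in the label; each day is 4 different rats, lines only guide the eye, and the grey band marks day 7. Macrophage genes lie at 3.39, 0.29, 3.24, 2.33 and 2.53 and cell division genes at 3.98, 1.08, 1.42, 0.54 and 0.11 on the arrays labelled days 1, 3, 7, 14 and 56; all days share the sham arrays.

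Day 7 differed from the arrays labelled day 3 by at least 1 in 1688 called genes, 875 higher (6.15%) and 813 lower (5.72%). Lum, a proteoglycan of fibroblasts, was 8.05 higher on day 7 (SE 0.70, adjusted p = 6.65e-08), Apoc1 7.46 higher, Plbd1 7.38 higher and Igf1, a growth factor that macrophages also make, 7.31 higher (SE 0.52, adjusted p = 5.10e-09). Lower on day 7 were the antioxidant enzyme Gpx2 (-7.95), S100a9 (-7.80), the iron-binding Lcn2 (-7.34), Fosl1 (-7.08) and Alas2 (-6.79). Against the arrays labelled day 1, 309 genes were at least 1 higher and 411 lower on day 7, with Lum (0.60), Plbd1 (-0.17) and Igf1 (0.48) not called and S100a9 6.17 lower.

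Against day 14, 79 called genes (0.556%) were at least 1 higher on day 7 and 37 (0.26%) lower. The 116 genes became 31 after quantile normalization, 36 without dim probe sets, 76 with median centring, 293 without day 7 replicate 3 and 75 without replicate 2, so this count is not firm. Among cell division genes, Cdkn3 was 2.66 higher on day 7 (SE 0.71, adjusted p = 0.0124), Shcbp1 2.44 and Mki67 1.28 higher (adjusted p = 0.0342). Postn was 2.03 higher (SE 0.71, adjusted p = 0.0373), while Cd68 (0.51), Trem2 (0.52) and Tnc (1.08, adjusted p = 0.151) were not called. Lower on day 7 than on day 14 were the growth factor Igf2 (-2.49), Ppp1r1b (-2.32), the B cell chemokine Cxcl13 (-2.10) and the interferon-stimulated Ifit3 (-2.23) and Oasl (-2.07). Against day 56, 195 genes were at least 1 higher on day 7 and 136 lower, with Postn 6.82 and Tnc 5.39 higher.

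By group means, only 8 of the 14218 genes (0.0563%) were called and at least 1 higher on day 7 than in sham and than on each other day, and 0 were lower. Single rats of day 7 lay within the range of another day for H19, Dpysl4, Ptpro and Rassf10. Casr, the calcium-sensing receptor, read 2.40 to 2.53 in sham cord and 7.65, 7.18, 7.29 and 8.69 on day 7 (5.24, SE 0.37, adjusted p = 7.32e-09), with a mean of 3.53 on day 14 and of 2.42, 2.37 and 2.40 on the arrays labelled days 1, 3 and 56. Pnlip, a triglyceride lipase best known from the pancreas, read 7.26 to 7.68 in sham cord and 11.22, 10.68, 11.16 and 11.69 on day 7 (3.69, SE 0.54, adjusted p = 2.37e-05). Tcf7l2, a Wnt pathway transcription factor that is present in oligodendrocytes at the start of their differentiation, read 7.36, 7.84, 7.43 and 7.90 in sham cord and 10.20, 9.62, 9.90 and 10.41 on day 7 (2.40, SE 0.17, adjusted p = 1.06e-08). All 4 injured rats were well above the sham range in each of these genes. Rras2, a small GTPase of the Ras family, was 3.44 higher than in sham, the receptor phosphatase Ptpro 3.56, Dpysl4, of the collapsin response mediators that steer growth cones, 3.39, the non-coding RNA H19 1.78 and the Ras-association protein Rassf10 1.41. These genes did not follow the order of the rats in the rest of the array: replicate 2 was the lowest of the 4 in 6 of the 8 genes and replicate 4 the highest in 6. The count of 8 was 5 without replicate 1 and 12 without replicates 2 and 3.

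**Figure D5:**
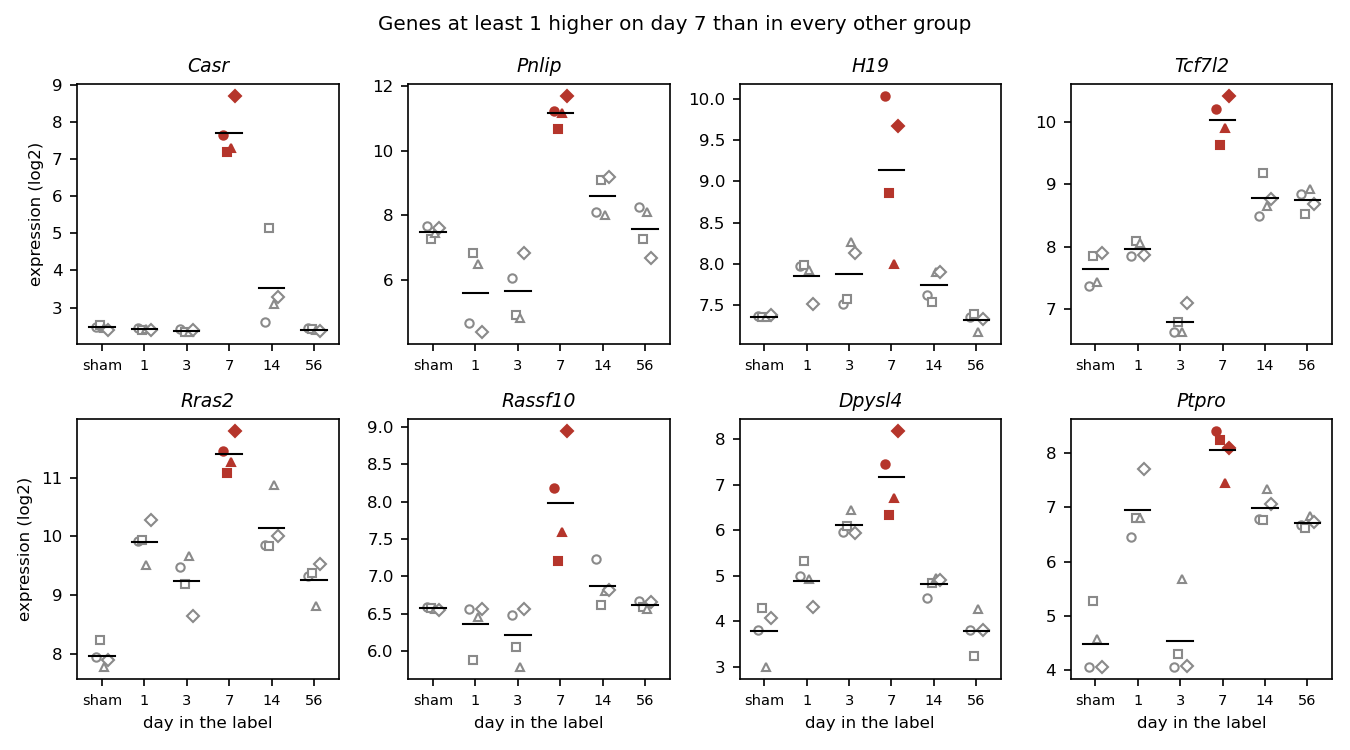
Expression (log2) of the 8 genes that were at least 1 higher on day 7 than in every other group, by the day in the label; symbols are single rats, bars group means, filled red symbols day 7, and each panel has its own vertical axis that does not start at 0. The day 7 mean of Casr is 7.70, against 3.53 on day 14 and 2.46 in sham.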

How the data were processed

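Log2 expression values of 31099 Affymetrix Rat Genome 230 2.0 probe sets were deposited by the authors, who made them from the scans with affy 1.12.2 and GCRMA, each time point on its own. Arrays of different days therefore share no joint normalization. Whether the sham arrays were processed with those of a given day was not stated. Of the probe sets 20832 have 1 gene symbol in the platform annotation, 436 several and 9831 none. Where several probe sets carried 1 symbol, the brightest on average over all arrays stood for the gene, which left 14218 genes. Groups came from the sample titles (6 groups of 4 rats). limma 3.58.1 in R 4.3.3 was fitted to all 6 groups, with Benjamini-Hochberg adjustment over the 20832 probe sets and a threshold of 0.05. The p-values rest on the spread between rats. No genome was used; promoter windows are RefSeq's (GRCr8), 250 bases before to 50 after the start.

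The members and gene lists were chosen with earlier results of these data known. Named genes were the 12 largest changes per direction among called genes with no overlap and a mean of at least 5. The 4 largest members and first 2 of each list were named too, and genes whose mean was beyond every other group's (up to 8). The 5 largest against days 3 and 14 and the 10 widest day 7 ranges complete them. Genes named only by LOC or RGD and a number were left out of these rankings, though not of the lists. Further list members and values against other days are given beside them, chosen after their values were seen. Data were simulated for the day 7 comparison (14218 genes). In them 44.8% of 67 changes of 0.5 were recovered, 70.1% of 67 changes of 1 and 90.9% of 66 changes of 2. False calls numbered 6. Far fewer genes were changed there than were called on day 7, so these shares do not carry over to the real comparison. Alternatives were other scalings, filters, tests and probe set rules, the replicate block and each rat left out. The number of arrays limits the precision. The replicate numbers did not pair the rats.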

Additional observations from a re-analysis of the deposited data

Results flagged for a closer look

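In 588 checks of a named gene in a group and 102 of a gene list in a group, 19 had 1 rat far from the other 3, by the share of the group's range that separates it. The checks share the same rats, and many of the genes were named for their differences, so the 19 cannot be set against a rate expected from chance. Day 7 replicate 3 stood apart, nearest to sham, for the neuronal genes Creg2 (0.993), Gabrb2 (0.913), Hecw1 (0.877) and Rgs7bp (0.887). Day 7 replicate 2 stood apart for S100a9 (0.975) and replicate 4 for Cxcl13 (0.857). Among sham rats, replicate 1 stood apart for Cxcl16 (0.945), Igf2 (0.850), Prelp (0.867) and RT1-Da (0.959), replicate 3 for Apoc1 (0.835), and replicate 4 for the interferon-stimulated genes Irf7 (0.869) and Mx1 (0.900). By list medians, a lone rat appeared on day 7 in interferon-stimulated genes (0.847), glutamate receptors (0.900) and glycolysis and lactate transport (0.852). In sham cord it appeared in fibrotic scar matrix (0.922), chondroitin sulfate proteoglycans and tenascins (0.932) and glutamate receptors (0.869).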

How the results depend on the processing

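The counts of genes called, and of genes at least 1 higher or lower than sham, stayed within 1.5 times their values under every alternative run. Within that limit the genes called ranged widely, from 5216 without day 7 replicate 1 to 9461 with centring on probe sets with 1 symbol. They were 5401 without dim probe sets, 5709 with quantile normalization and 5749 with median centring. The share of higher genes among called genes, 43.9%, was 46.1% with the mean of probe sets, 64.6% with median centring, 29% with centring on probe sets with 1 symbol, 40.7% by the methods' t-test, 53.2% with quantile normalization, 49.7% on sham and day 7 arrays only, 40.9% with trend and robust moderation, 60.0% without dim probe sets and 53.8% without day 7 replicates 2 and 3. With 1 rat left out it ran from 39.8% to 55.3%. Centring on probe sets with 1 symbol was chosen after seeing the data and moved the median gene by -0.14. The 116 genes that differed by at least 1 from day 14 became 76 with median centring, 31 with quantile normalization and 36 without dim probe sets, and 75 to 293 with 1 rat left out. The 8 genes highest on day 7 became 5 to 10 with 1 rat left out, and the 0 lowest genes 0 to 1, with 1 gene without day 7 replicate 1 and without replicate 3. The cause of these shifts was not tested. Differences of genes at background turned sign: with quantile normalization Adipoq (0.00105) and Klf1 (0.00013), and with median centring Adipoq (0.0232), Cd3d (0.0159), Cd79b (0.0182), Col9a1 (0.0119), Klf1 (0.0234), Plin1 (0.0178), Rhag (0.00424) and Tnfrsf17 (0.00007). With the replicate block 7269 genes were called, against 7611. Same-numbered sham and day 7 rats correlated at -0.13, 0.07, 0.18 and 0.01, so the numbers share no more than a label.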
